A study of Mus musculus with 12 samples.

Results

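The enzymes of the tricarboxylic acid (TCA) cycle and of mitochondrial fatty acid oxidation were followed in inguinal adipose tissue through 37 genes, chosen by symbol from the 23420 genes of the series' count table. All 37 were found, and all 37 passed the filter on low counts that left 15306 genes for testing. Of them, 19 belong to the TCA cycle and the reactions that feed it, and 18 to fatty acid oxidation. By their known locations, 34 of the encoded enzymes are mitochondrial and 3 are cytosolic (Aco1, Idh1 and Mdh1).

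RNA was sequenced from the inguinal fat pad, a subcutaneous white depot that gains beige, heat-producing adipocytes in cold, of male C57BL/6 mice aged 10 weeks. Wild type mice (WT) carried loxP-flanked alleles of HIF2a, the oxygen-regulated transcription factor encoded by Epas1, without Cre. Adipocyte knockout mice (AKO) carried the same alleles with Cre under the adiponectin promoter, which acts in adipocytes and leaves the other cells of the pad unrecombined. Mice were kept either at thermoneutrality (TN, 30 °C) for 1 week or in cold (4 to 6 °C) for 3 days, and each of the 4 combinations had 3 libraries. Temperature and length of housing changed together, and Cre and the deletion did too, so neither pair can be told apart.

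As background, the TCA cycle oxidises acetyl-CoA in the mitochondrial matrix and passes the electrons to the respiratory chain. Fatty acids supply much of this acetyl-CoA in adipocytes that burn fuel for heat: long chains enter the mitochondrion as carnitine esters, are shortened by the repeated steps of beta-oxidation, and give electrons to the electron transfer flavoprotein. Several steps are run by isoenzymes that differ in tissue, compartment or cofactor, such as CPT1A, the liver form of the outer membrane carnitine palmitoyltransferase, and CPT1B, the form of muscle and brown fat.

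The libraries held 22368316 to 35204631 counts on genes. Epas1 itself was not lower in the libraries labelled AKO. Its log2 fold change of AKO against WT was -0.05 at TN and 0.40 in cold (unadjusted p = 0.80 and 0.069, edgeR quasi-likelihood). The count covers the whole gene in all cells of the pad, and its part in this was not tested. The authors report lower mRNA of this gene in adipose tissue of their knockout mice. Genotypes are given as labelled. A pair of libraries stood apart by skeletal muscle transcripts: the summed level of 12 muscle markers was 1590 CPM (normalised counts scaled to library size) in TN AKO 2 and 1299 in cold AKO 1, against at most 95.4 elsewhere, and 11 of the 12 markers were higher in both than in any other library. Ckm, Myh4, Myh7 and Pvalb were at 0 in at least 1 library. TN WT 3 stood apart as well, with 6 epithelial markers summing to 200.05 CPM against at most 10.3 elsewhere (Krt5, Krt8, Krt14 and Krt18 were at 0 in at least 1 library), and with 6 macrophage markers at 1290.3 CPM against 2093 to 2349 in the other TN libraries. Defining adipocyte markers (8 genes) were present in all 12 libraries, with the lowest sum in TN WT 2 (5194 CPM).

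Cold raised nearly the whole set in both genotypes. In WT, 33 of 37 genes were higher in cold and 0 were lower by the quasi-likelihood test of edgeR with Benjamini-Hochberg (BH) correction at 0.05, where 15.6% of all tested genes were higher and 5.68% lower. The median log2 fold change was 1.76 over the 37 genes and -0.03 over all genes tested. In AKO, 32 of 37 were higher and 0 lower, beside 15.6% and 11.5% of all genes, and the medians were 1.84 and -0.05. The rise covered TCA and oxidation genes. In WT, 16 of 19 TCA genes and 17 of 18 fatty acid oxidation genes were called higher, and in AKO 15 of 19 and 17 of 18.

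Summed over the 37 genes, the level was 4753 to 9033 CPM in TN WT, 5776 to 10492 in TN AKO, 20082 to 28442 in cold WT and 23875 to 35039 in cold AKO, and the cold mean was 3.23 times the TN mean in WT and 3.40 times in AKO. The groups did not overlap between temperatures in 34 genes, all higher in cold, in WT (22.7% of all genes), and in 34 genes higher (24.9% of all genes) and 1 lower (25.6% of all genes) in AKO. These were whole fat pads, so that fewer cells of a type and less RNA per cell cannot be told apart. Marker levels moved with temperature as well. All 6 markers of thermogenic adipocytes rose in both genotypes, their sum going from 12.1 to 54.2 CPM in TN WT to 3274 to 4797 in cold WT, and from 30.5 to 60.8 in TN AKO to 5527 to 8459 in cold AKO, with Elovl3 at 0 in some library. Summed adipocyte markers were at 5194 to 12844 CPM in TN WT, 8067 to 14219 in TN AKO, 18112 to 35584 in cold WT and 22064 to 26821 in cold AKO, with 4 of 8 called higher in cold in WT and 2 of 8 in AKO. The 6 lymphocyte markers were all lower in cold in both genotypes, with 1 of 6 called in WT and 2 of 6 in AKO, and their sums did not overlap: 779 to 1184 CPM in TN WT against 426 to 704 in cold WT, and 739 to 1200.3 in TN AKO against 418 to 641 in cold AKO. Macrophage markers summed to 1290.3 to 2349 CPM in TN WT and 1058 to 2081 in cold WT, which overlap, and to 2093 to 2269.8 in TN AKO and 1192 to 1400.3 in cold AKO, which do not, with 0 of 6 called lower in WT and 1 of 6 in AKO. The 4 endothelial markers were not called in either. Without TN WT 3, the library with epithelial transcripts, 34 of the 37 genes were called in WT and their median log2 fold change was 1.98. The part of these cell types in the rise of the oxidative genes was not tested.

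**Figure D1:**
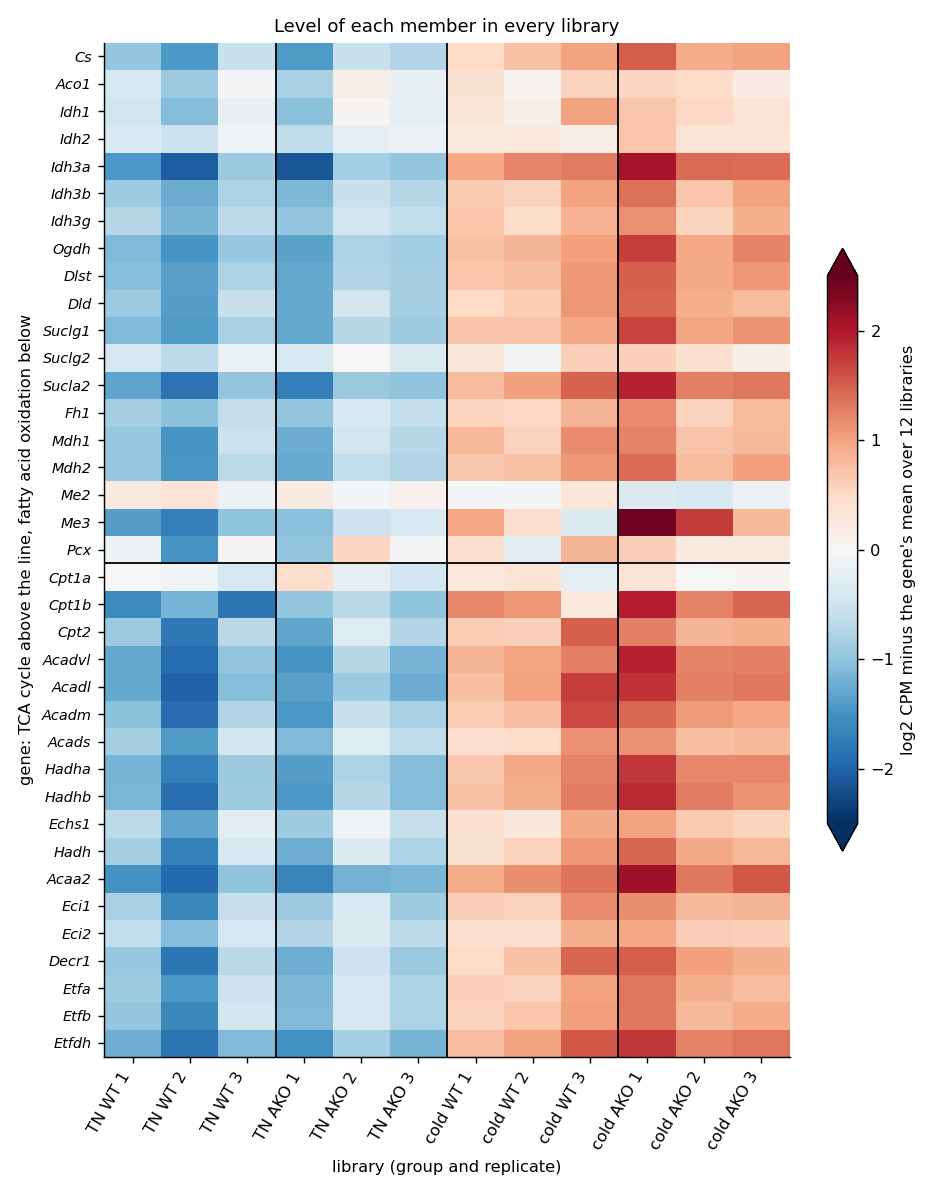
Heat map of the 37 genes (vertical axis) in the 12 libraries (horizontal axis), where colour gives log2 CPM minus the mean of the gene over all libraries. The 6 TN libraries are below the mean for most genes and the 6 cold libraries above it, while Me2 and Cpt1a show little contrast between temperatures and Me3 is highest in cold AKO 1.

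The entry of acetyl-CoA into the cycle followed the general rise. Cs, citrate synthase, averaged 516 ± 154 CPM (SD, n = 3) in TN WT and 1679.8 ± 301 in cold WT, and its log2 fold change was 1.70 ± 0.29 (SE, adjusted p = 0.00312, edgeR quasi-likelihood, BH). In AKO it went from 548 ± 158 to 2237 ± 528 CPM. Aco1, the cytosolic aconitase that also serves as an iron sensor, gave 0.77 in WT and 0.65 in AKO and missed the threshold of the same test in both (adjusted p = 0.0587 and 0.0848), although its temperature groups did not overlap.

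Isocitrate dehydrogenase genes rose by unequal amounts. The NAD-dependent enzyme of the cycle is built from a catalytic subunit, Idh3a, and the subunits Idh3b and Idh3g, whereas Idh2 (mitochondrial) and Idh1 (cytosolic) use NADP. Idh3a stood at 143, 91.6 and 203 CPM in the TN WT libraries, 87.3, 214 and 197 in TN AKO, 754, 893 and 952 in cold WT and 1614, 1023 and 1007 in cold AKO. The CPM of Idh3b was 201, 157 and 217 in TN WT, 170.3, 254 and 228 in TN AKO, 589.6, 556 and 751 in cold WT and 970.4, 604 and 751 in cold AKO. For Idh3g, the libraries held 207, 152 and 218 CPM in TN WT, 175, 242 and 224 in TN AKO, 550.2, 472 and 619.8 in cold WT and 754, 505 and 630.3 in cold AKO. For each of the 3 subunits the lowest cold library was above the highest TN library. Log2 fold changes in cold were 2.57 ± 0.37 in WT and 2.87 ± 0.38 in AKO for Idh3a, the largest rise of the TCA genes in both genotypes. Idh3b rose by 1.72 and 1.83, and Idh3g by 1.51 and 1.56.

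The NADP-linked enzymes moved less. The CPM of Idh2 was 108, 97.3 and 131 in TN WT, 90.4, 122 and 127 in TN AKO, 166, 169 and 158 in cold WT and 229, 179 and 179 in cold AKO. Idh1 stood at 195, 129 and 241 CPM in the TN WT libraries, 135, 282 and 232 in TN AKO, 345, 304 and 551 in cold WT and 443, 396 and 354 in cold AKO. Idh2 gave a log2 fold change of 0.55 ± 0.16 in WT (adjusted p = 0.0302, edgeR quasi-likelihood, BH) and 0.79 ± 0.16 in AKO (adjusted p = 0.00571). Idh1 gave 1.09 ± 0.31 in WT (adjusted p = 0.0307) and 0.88 ± 0.31 in AKO (adjusted p = 0.0543), so it passed in WT alone, and no difference between the genotypes was called for it. Temperature groups stayed apart for both genes in each genotype. The call of Idh2 in WT was lost when any of 5 libraries was left out (log2 fold change 0.53 without TN WT 1, 0.44 without TN WT 2, 0.55 without cold WT 1, 0.50 without cold WT 2 and 0.58 without cold WT 3). That of Idh1 was lost without TN WT 1 (1.11), TN WT 2 (0.86) or cold WT 3 (0.79).

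The oxoglutarate dehydrogenase complex, which turns 2-oxoglutarate into succinyl-CoA, rose in all 3 of its genes in both genotypes. Ogdh, the first component, went from 435 ± 80.0 to 1765 ± 183 CPM (SD, n = 3) in WT, and from 491 ± 94.5 to 2459 ± 669 in AKO. Log2 fold changes were 2.02 and 2.32 for Ogdh, 1.92 and 2.13 for Dlst, the succinyl-transferring core, and 1.68 and 1.89 for Dld, the lipoamide dehydrogenase shared with pyruvate dehydrogenase.

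Succinyl-CoA ligase joins a common alpha subunit, Suclg1, with 1 of a pair of beta subunits that set the nucleotide made: Sucla2 for ATP and Suclg2 for GTP. For Suclg1, the libraries held 95.9, 77.6 and 118 CPM in TN WT, 84.7, 126 and 111 in TN AKO, 337, 339.6 and 403 in cold WT and 659.7, 409.7 and 448 in cold AKO. Sucla2 stood at 93.3, 64.6 and 118 CPM in the TN WT libraries, 71.4, 122 and 116 in TN AKO, 403, 473 and 642 in cold WT and 875, 558 and 575 in cold AKO. The CPM of Suclg2 was 62.7, 53.6 and 74.8 in TN WT, 64.9, 84.9 and 65.3 in TN AKO, 103, 81.8 and 128 in cold WT and 127, 111 and 95.2 in cold AKO. In all 3 genes the cold libraries lay above the TN libraries of the same genotype, by a wide margin for Suclg1 and Sucla2 and a narrow one for Suclg2. Cold gave Sucla2 log2 fold changes of 2.46 ± 0.30 in WT and 2.70 ± 0.30 in AKO, and Suclg1 1.89 ± 0.22 and 2.24 ± 0.22. Suclg2 rose by 0.71 ± 0.19 (adjusted p = 0.0227, edgeR quasi-likelihood, BH) and 0.63 ± 0.19 (adjusted p = 0.0314). Its call in WT was lost without TN WT 1 (0.70), TN WT 2 (0.58) or cold WT 3 (0.53), and in AKO without TN AKO 1 (0.56), TN AKO 3 (0.57), cold AKO 1 (0.52) or cold AKO 2 (0.63).

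Fumarase and the malate dehydrogenases close the cycle. Fh1, the fumarase gene, rose by 1.45 in WT and 1.51 in AKO on the log2 scale. For Mdh2, the libraries held 281, 199 and 339 CPM in TN WT, 228, 356 and 323 in TN AKO, 862, 903 and 1147 in cold WT and 1451, 936 and 1100.2 in cold AKO. Mdh1 stood at 334, 233 and 443 CPM in the TN WT libraries, 274, 469 and 396 in TN AKO, 1153, 969 and 1458 in cold WT and 1529, 1062 and 1140.3 in cold AKO. Mdh2, the matrix enzyme, and Mdh1, its cytosolic partner in the malate-aspartate shuttle, were higher in every cold library than in any TN library. Their log2 fold changes were close to each other, 1.83 ± 0.25 and 1.83 ± 0.28 in WT and 1.94 ± 0.25 and 1.71 ± 0.28 in AKO. Mdh1 thus passed the threshold in both genotypes. Of the other 2 cytosolic genes, Idh1 passed in WT alone and Aco1 in neither. Both were nonetheless higher in cold in each genotype, without overlap between temperatures.

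The enzymes around malate and pyruvate did not move together. Me2 and Me3 are the mitochondrial malic enzymes, which turn malate into pyruvate with NAD and NADP respectively. Me2 stood at 54.1, 58.9 and 42.1 CPM in the TN WT libraries, 54.1, 45.1 and 49.9 in TN AKO, 44.7, 44.9 and 57.6 in cold WT and 36.0, 35.3 and 41.9 in cold AKO. The CPM of Me3 was 0.866, 0.685 and 1.13 in TN WT, 1.09, 1.57 and 1.73 in TN AKO, 4.39, 3.08 and 1.77 in cold WT and 12.2, 7.60 and 3.93 in cold AKO. Me2 showed overlapping groups in WT, and in AKO every cold library was below every TN library. Its log2 fold change was -0.08 ± 0.14 in WT (adjusted p = 0.709, edgeR quasi-likelihood, BH) and -0.40 ± 0.14 in AKO (adjusted p = 0.0598), and it passed as lower in AKO with limma's voom (-0.42), with upper quartile normalization (-0.49), in a fit to the AKO libraries only (-0.38), and without TN WT 3 or cold WT 3 (-0.40 each). In WT the value turned to 0.0094 without TN WT 2.

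Me3 rose by 1.78 ± 0.44 in WT (adjusted p = 0.0183, edgeR quasi-likelihood, BH) and 2.42 ± 0.43 in AKO (adjusted p = 0.00318), from a level near 1 CPM and 20 to 50 counts a library at TN. The call in WT was lost without TN WT 1 (1.76), TN WT 2 (1.61) or cold WT 1 (1.44). In GENCODE M21 its exons overlap A230065N10Rik on the other strand, and whether the counting used strand is not given in the sources used here. Pcx, the pyruvate carboxylase that refills oxaloacetate, had the highest mean per kb of transcript of the 37 genes at TN and a wide spread, from 687 to 2787 CPM over the TN libraries and from 1585 to 3443 over the cold ones. It gave 0.79 ± 0.45 in WT (adjusted p = 0.210) and 0.40 ± 0.45 in AKO (adjusted p = 0.518), with overlapping groups.

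Carnitine palmitoyltransferases carry long-chain fatty acids into the mitochondrion, CPT1 on the outer membrane and CPT2 on the inner. In GENCODE M21 (GRCm38), Cpt1a lies at chr19:3322334-3385733 on the plus strand and Cpt1b at chr15:89416405-89425863 on the minus strand. For Cpt1a, the libraries held 105, 100.5 and 77.7 CPM in TN WT, 143, 88.1 and 74.8 in TN AKO, 126, 133 and 89.7 in cold WT and 132, 104 and 109 in cold AKO. Cpt1b stood at 0.357, 0.480 and 0.307 CPM in the TN WT libraries, 0.545, 0.659 and 0.530 in TN AKO, 2.46, 2.26 and 1.29 in cold WT and 4.16, 2.53 and 2.92 in cold AKO. Cpt1a overlapped between temperatures in both genotypes, whereas the highest TN library of Cpt1b was below its lowest cold library. Cold gave Cpt1a a log2 fold change of 0.30 ± 0.23 in WT (adjusted p = 0.349, edgeR quasi-likelihood, BH) and 0.17 ± 0.23 in AKO (adjusted p = 0.592). The AKO value turned to -0.0067 without TN AKO 3.

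Cpt1b rose by 2.38 ± 0.32 in WT (adjusted p = 0.00114, edgeR quasi-likelihood, BH) and 2.46 ± 0.31 in AKO (adjusted p = 0.000509), 5.21 and 5.48 fold. It was nonetheless rare, with 9 to 21 counts in the TN libraries and 32 to 86 in the cold ones. Per kb of transcript, the counts of Cpt1a exceeded those of Cpt1b 89.6 to 197 fold in the TN libraries. In cold they did so 34.4 to 46.7 fold in WT and 21.2 to 27.6 fold in AKO. The level of Cpt1b is uncertain, because its exons overlap Gm44502 on the same strand in GENCODE M21. If the annotation used holds that gene, reads shared by both would be missing, so these counts do not settle which transcript was more abundant. Cpt2, the inner membrane enzyme, rose by 2.03 ± 0.34 in WT and 1.74 ± 0.34 in AKO.

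**Figure D2:**
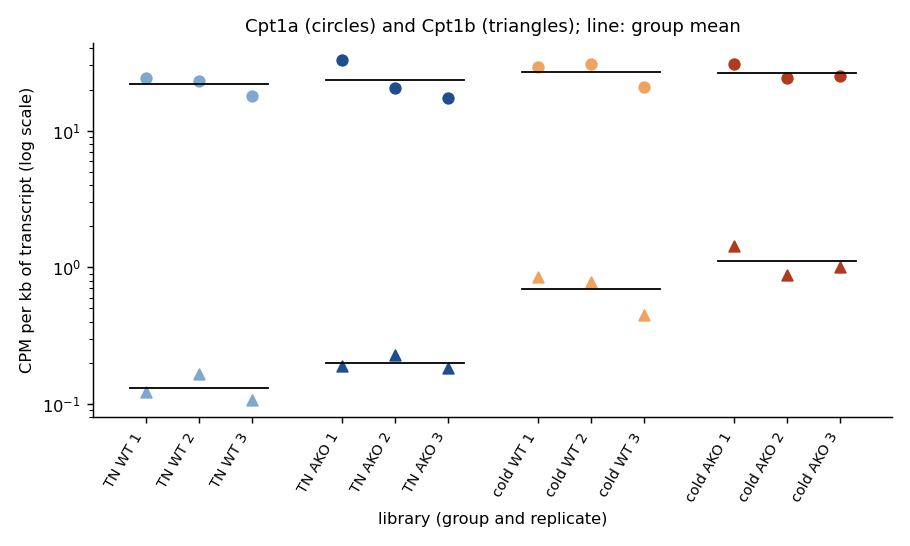
CPM per kb of transcript (vertical axis, log scale) of Cpt1a (circles) and Cpt1b (triangles) in each library (horizontal axis), with a line at each group mean. Cpt1a stays between 17.3 and 33.1 in all 12 libraries, while Cpt1b lies between 0.106 and 0.228 at TN and between 0.445 and 1.44 in cold. Reads that Cpt1b shares with an overlapping gene may be missing.

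Acyl-CoA dehydrogenases start each turn of beta-oxidation and are told apart by the chain length they prefer. The CPM of Acadl was 194, 116 and 224 in TN WT, 182, 248 and 197 in TN AKO, 792, 934 and 1549.7 in cold WT and 1640.2, 1115 and 1169 in cold AKO. For Acadvl, the libraries held 171, 108 and 209 CPM in TN WT, 149, 252 and 184 in TN AKO, 747, 824 and 987 in cold WT and 1572, 969.7 and 994 in cold AKO. Each cold library exceeded each TN library for both genes. Acadl, the long-chain enzyme, had the largest log2 fold change of the 37 genes in WT, 2.62 ± 0.31 (adjusted p = 0.000691, edgeR quasi-likelihood, BH), and 2.64 ± 0.31 in AKO. Acadvl, for very long chains, rose by 2.39 ± 0.29 and 2.59 ± 0.30, Acadm, for medium chains, by 2.24 and 2.06, and Acads, for short chains, by 1.57 and 1.56. In cold WT, Acadm averaged 899.8 ± 369 CPM (SD, n = 3) and Acads 282 ± 83.1.

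The steps after the first dehydrogenation rose in all 5 genes and both genotypes. Hadha and Hadhb encode the alpha and beta subunits of the trifunctional protein, which handles long chains at the inner membrane. Hadha went from 246 ± 64.5 to 1132 ± 226 CPM (SD, n = 3) in WT, and Hadhb from 156 ± 51.5 to 734 ± 144. Their log2 fold changes were 2.20 and 2.23 in WT, and 2.49 and 2.51 in AKO. The log2 ratio of Hadhb to Hadha lay between -0.82 and -0.55 in all 12 libraries, a comparison chosen after the values were seen. The genes lie head to head on chromosome 5, with 85 bases between their annotated starts, which are shown because they separate both subunits of 1 enzyme. They come from GRCm38.p6 (RefSeq), chr5:30155163-30155247, plus strand, with the GC box letters GGGCGG in capitals.
between Hadha and Hadhb: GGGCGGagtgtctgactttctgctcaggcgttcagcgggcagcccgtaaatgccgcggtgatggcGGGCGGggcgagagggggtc

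For Acaa2, the libraries held 93.2, 68.2 and 131 CPM in TN WT, 84.1, 115 and 119 in TN AKO, 498, 589 and 670.2 in cold WT and 1140.3, 653 and 771 in cold AKO. Acaa2, the matrix thiolase that releases acetyl-CoA, was separated by temperature in every library and rose by 2.59 ± 0.28 in WT (adjusted p = 0.000508, edgeR quasi-likelihood, BH) and 3.01 ± 0.28 in AKO (adjusted p = 0.000154), the latter the largest log2 fold change of the 37 genes in AKO. Hadh, the hydroxyacyl-CoA dehydrogenase for shorter chains, gave 1.59 and 1.84. Echs1, the enoyl-CoA hydratase, gave the smallest rise of these 5 genes, 1.27 ± 0.28 in WT (adjusted p = 0.0116) and 1.24 ± 0.28 in AKO (adjusted p = 0.0110). Its call was lost in WT without cold WT 3 (1.04), and in AKO without TN AKO 1 (1.08) or cold AKO 1 (1.10).

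Unsaturated fatty acids need isomerases and a reductase. Eci1 stood at 80.2, 46.5 and 94.7 CPM in the TN WT libraries, 75.4, 109 and 76.2 in TN AKO, 217, 210.0 and 323 in cold WT and 316, 247 and 253 in cold AKO. The CPM of Eci2 was 55.2, 40.2 and 62.9 in TN WT, 50.9, 66.4 and 53.9 in TN AKO, 112, 114 and 156 in cold WT and 166, 129 and 128 in cold AKO. No TN library reached the lowest cold library of its genotype for either isomerase. Eci1, the mitochondrial enoyl-CoA isomerase, rose by 1.76 ± 0.27 and 1.65 ± 0.27, and Eci2, the isoenzyme also found in peroxisomes, by 1.27 ± 0.19 and 1.30 ± 0.19 in WT and AKO. Decr1, the 2,4-dienoyl-CoA reductase, gave 2.04 and 2.03.

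Electrons from the acyl-CoA dehydrogenases pass through the electron transfer flavoprotein, of which Etfa and Etfb are the subunits, to its ubiquinone oxidoreductase, Etfdh. For Etfdh, the libraries held 86.9, 57.2 and 94.0 CPM in TN WT, 70.5, 112 and 89.9 in TN AKO, 346, 406 and 590.2 in cold WT and 703, 481 and 509.9 in cold AKO. Etfdh was higher in each cold library than in any TN library and rose by 2.50 ± 0.27 in WT (adjusted p = 0.000517, edgeR quasi-likelihood, BH) and 2.63 ± 0.27 in AKO (adjusted p = 0.000226). The flavoprotein subunits rose less, Etfa by 1.65 and 1.77 and Etfb by 1.72 and 1.77, differences from Etfdh that were not tested.

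**Figure D3:**
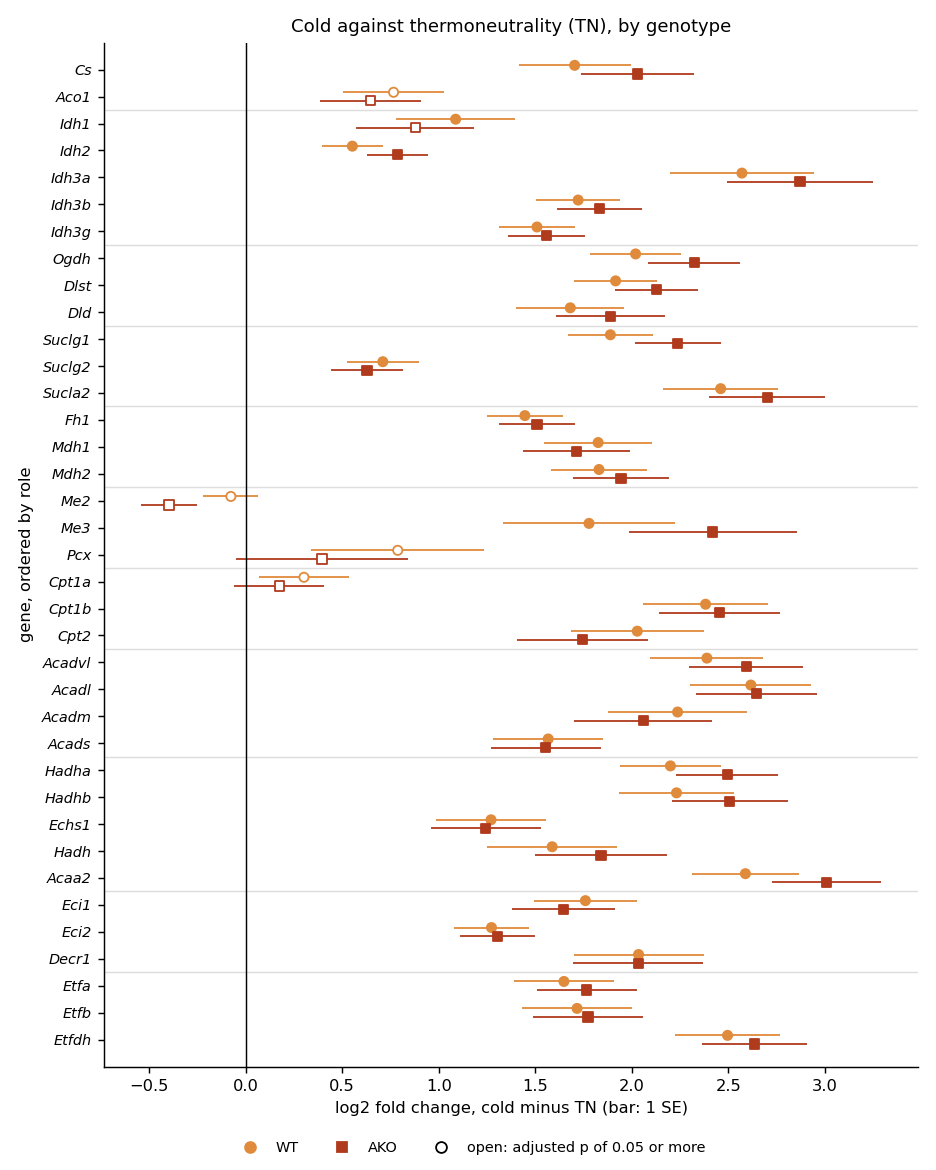
Log2 fold change in cold against TN (horizontal axis, with bars of 1 SE) of each gene (vertical axis, ordered by role) in WT (circles) and AKO (squares), filled where the adjusted p was under 0.05. Open symbols mark Aco1, Me2, Pcx and Cpt1a in both genotypes and Idh1 in AKO, and Me2 alone lies below 0.

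Genes linked to the same pathways but outside the 37 were mostly higher in cold as well. Of all tested genes, 15.6% were called higher in each genotype, and 5.68% were called lower in WT and 11.5% in AKO. Of 6 other TCA genes, 4 rose in each genotype, the succinate dehydrogenase subunits, with Sdha at 1.40 in WT and 1.45 in AKO on the log2 scale, while Me1, the cytosolic malic enzyme, and Ogdhl missed the threshold. Of 17 other genes linked to fatty acid oxidation, 14 were called higher in WT and 12 in AKO, and 0 were called lower. Not all of them are steps of beta-oxidation, since the list includes Acacb and the propionyl-CoA carboxylase genes Pcca and Pccb. Slc25a20, the carnitine-acylcarnitine carrier between CPT1 and CPT2, had log2 fold changes of 3.02 and 3.20. Acacb, whose product makes the malonyl-CoA that blocks CPT1, rose by 2.58 and 2.65, and Mlycd, which removes malonyl-CoA, by 1.50 and 1.64. Among 8 regulators of oxidative genes, 5 rose in WT and 6 in AKO. They included Ppargc1a (2.56 and 2.95), the coactivator PGC-1 alpha, Ppara (3.33 and 2.98), a nuclear receptor for fatty acids, and Esrra (1.61 and 1.85), an orphan receptor of mitochondrial genes. The other regulators, 3 in WT and 2 in AKO, were not called, and 1 value in each genotype was negative (-0.18 and -0.26).

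Recognition letters of these factors, and of the factors that respond to cAMP and hypoxia, are known. The 250 bases upstream of the RefSeq starts (GRCm38.p6) were searched for them on both strands in the 32 of 37 genes with an entry, beside the same window in 27025 genes. AAGGTCA, the estrogen-related receptor site, was in 1 of 32 (3.12%, against 4.70% of all genes), and the shorter AGGTCA, which lies inside it and is the repeated unit of PPAR elements, in 6 (18.8%, against 15.8%). TGACG, of the cAMP response element, was in 8 (25.0%, against 19.8%). Of the cores of the hypoxia response element, ACGTG was in 5 (15.6%, against 18.5%) and GCGTG in 16 (50.0%, against 30.9%), and ACGTG can share letters with TGACG. The GC box GGGCGG was in 22 (68.8%, against 35.4%). The genes compared against were not matched for expression or base composition, and these differences in share were not tested. A match describes letters and not a bound site. The stretches upstream of the RefSeq starts of Acadm, the gene with AAGGTCA, of Acadvl, and of Cpt1a, which missed the threshold, are printed with their AAGGTCA or AGGTCA match in capitals, on either strand (AGGTCA reads TGACCT on the other). They are from chr3:153944644-153944893 (minus strand), chr11:70015429-70015678 (minus strand) and chr19:3323051-3323284 (plus strand), the last ending 16 bases before the listed start. That last stretch lies inside Cpt1a as GENCODE M21 annotates it, since a transcript in that annotation starts farther upstream.
Acadm: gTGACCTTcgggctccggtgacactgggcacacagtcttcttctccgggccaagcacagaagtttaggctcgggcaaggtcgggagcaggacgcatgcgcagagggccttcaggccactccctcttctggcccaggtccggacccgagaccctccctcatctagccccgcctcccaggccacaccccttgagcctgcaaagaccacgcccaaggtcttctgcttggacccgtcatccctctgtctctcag
Acadvl: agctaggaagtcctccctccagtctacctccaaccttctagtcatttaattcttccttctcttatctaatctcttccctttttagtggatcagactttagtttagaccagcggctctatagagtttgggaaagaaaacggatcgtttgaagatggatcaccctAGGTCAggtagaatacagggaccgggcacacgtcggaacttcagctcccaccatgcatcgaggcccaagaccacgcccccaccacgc
Cpt1a: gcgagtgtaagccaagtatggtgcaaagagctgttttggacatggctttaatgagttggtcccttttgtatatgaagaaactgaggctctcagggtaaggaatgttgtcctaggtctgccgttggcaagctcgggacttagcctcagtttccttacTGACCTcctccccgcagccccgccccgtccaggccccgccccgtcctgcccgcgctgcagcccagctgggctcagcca

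Isoenzyme and subunit balance was compared as the log2 ratio of counts within a library for 10 pairs, which does not depend on the scaling between libraries. Cold was tested against TN by a two-sided exact permutation test on the mean difference over both genotypes, with labels permuted within each genotype. Its 400 arrangements make 0.005 the smallest p possible, and p was adjusted over the 10 pairs. Within 1 genotype, 3 against 3 libraries cannot give a p under 0.1 by such a test. In 7 of 10 pairs all cold libraries lay on 1 side of the TN libraries in both genotypes, and the adjusted p of this test was 0.00714. Ratios of other gene pairs were not computed, so no share over all pairs stands beside these 7. Of single genes in AKO, 24.9% were apart and higher in cold and 25.6% apart and lower. The ratios restate changes of the members given above. They are taken over related genes and some share a member, so the 7 are not separate results.

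Cpt1b over Cpt1a stood at -8.15, -7.66 and -7.91 in TN WT, -7.98, -7.03 and -7.09 in TN AKO, -5.67, -5.86 and -6.10 in cold WT and -4.98, -5.35 and -5.21 in cold AKO, a mean shift of 2.11 (4.31 fold) toward Cpt1b. The ratio of Idh3a to Idh2 moved by the same 2.11, from means of 0.32 ± 0.37 (SD, n = 3) in TN WT and 0.46 ± 0.45 in TN AKO to 2.39 ± 0.20 and 2.61 ± 0.18 in cold. Sucla2 over Suclg2 moved by 1.93, from 0.50 ± 0.20 and 0.49 ± 0.34 to 2.28 ± 0.28 and 2.57 ± 0.23. At the level of counted transcripts, these ratios moved toward Cpt1b, the muscle and brown fat form, toward Idh3a, and toward Sucla2, the beta subunit for ATP. Idh3b and Idh3g, the other subunits of the NAD-dependent isocitrate dehydrogenase, rose less than Idh3a. The shift of 2.11 over Idh2 therefore describes Idh3a and not the whole enzyme.

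Me3 over Me2 shifted by 2.24, with the widest spread (SD 0.85 in cold WT and 0.94 in cold AKO). Within the NAD-dependent isocitrate dehydrogenase, Idh3a gained on Idh3g by 1.25, while Idh3b gained on Idh3g by 0.24. Eci1 over Eci2 shifted by 0.44. The other 3 ratios did not pass. Idh2 over Idh1 changed by -0.33 (p = 0.11 by the exact permutation test, adjusted p = 0.138) and passed when TN AKO 2 was left out (-0.41), Mdh2 over Mdh1 by 0.11 (p = 0.15, adjusted p = 0.167) and Acadl over Acadvl by 0.11 (p = 0.355, adjusted p = 0.355).

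**Figure D4:**
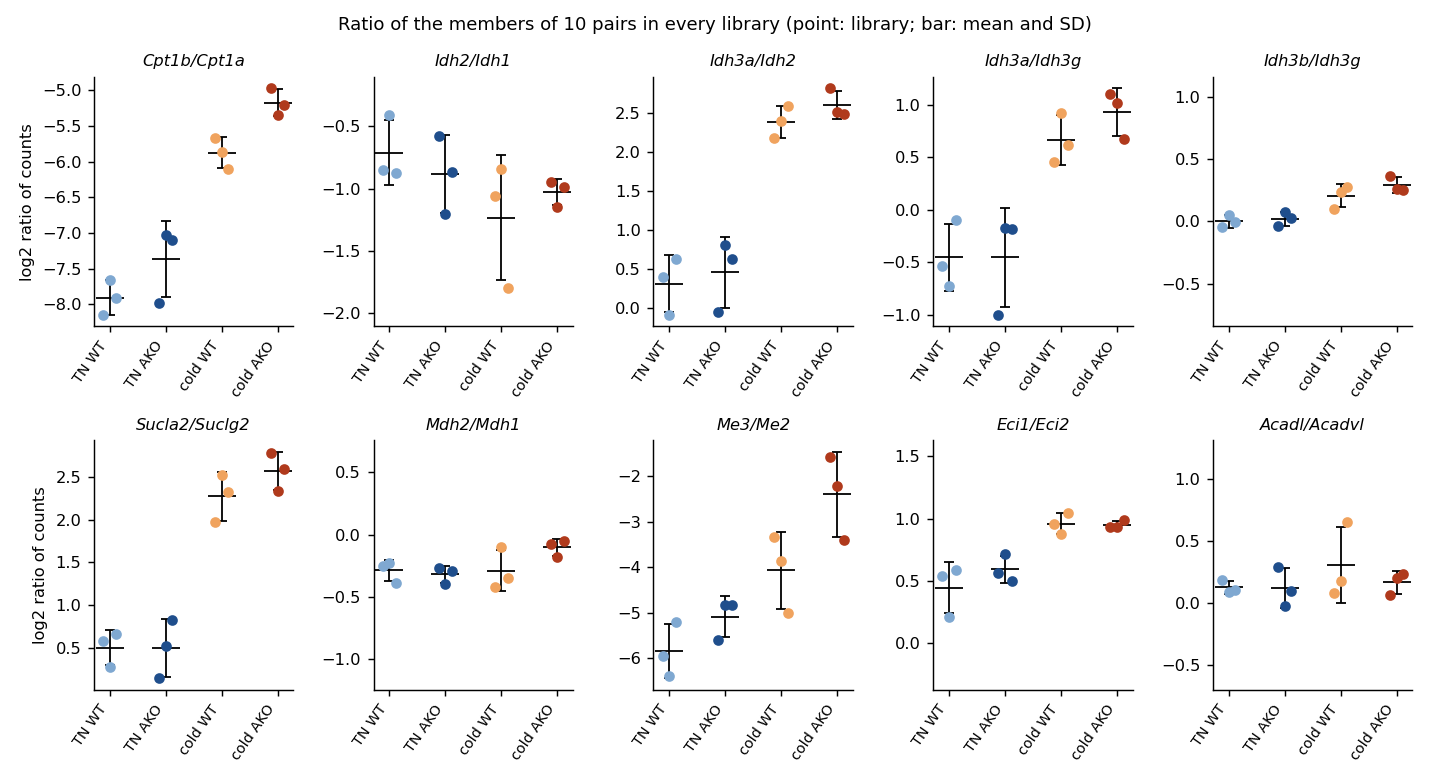
Log2 ratio of counts (vertical axis, range set for each panel and at least 2 units) in the libraries of the 4 groups (horizontal axis) for 10 pairs, with points for libraries and bars for mean and SD. Cold points lie above the TN points of their genotype in 7 panels, among them Cpt1b/Cpt1a and Sucla2/Suclg2, and overlap them in at least 1 genotype in Idh2/Idh1, Mdh2/Mdh1 and Acadl/Acadvl.

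Loss of HIF2a in adipocytes, as labelled, was compared at each temperature, the question being whether it alters the oxidative genes in cold. No gene of the 37 passed the quasi-likelihood test of edgeR with Benjamini-Hochberg (BH) correction in cold (smallest adjusted p = 0.9999) or at TN, where 1 gene of all tested passed in each (0.00653% in cold and 0.00653% at TN). At an unadjusted p under 0.05, 4 of 37 stood out in cold (Me3, Me2, Suclg1 and Cpt1b, against 2.95% of all genes) and 0 at TN (against 2.91%). DESeq2 and limma's voom called 0 of 37 as well.

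In direction, 33 of 37 genes had a positive log2 fold change of AKO against WT in cold (43.8% of all genes) and 36 of 37 at TN (54.3% of all genes). The medians were 0.26 in cold and 0.17 at TN, against -0.02 and 0.01 over all genes. These medians depended on single libraries. Without cold AKO 1, which had the muscle transcripts and the highest sums of both the 37 genes and the thermogenic markers, the cold median was 0.08. Without cold WT 3 it was 0.44. That library had the highest adipocyte marker sum of the 12 libraries (35584 CPM) and the lowest macrophage marker sum (1058 CPM). At TN the median was 0.01 without TN AKO 2, -0.01 without TN WT 2, 0.33 without TN AKO 1 and 0.39 without TN WT 3, the library with epithelial and fewer macrophage transcripts. The genes are co-expressed and share libraries, so the count of positive signs is not a count of separate observations.

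In cold, 5 genes did not overlap between genotypes: Idh2, Idh3a, Suclg1 and Cpt1b were higher in every AKO library (3.8% of all genes were) and Me2 was lower in each (3.73% of all genes). At TN, Cpt1b alone was apart, and higher in AKO (3.69% of all genes). Me3 had the largest difference in cold, 1.36 ± 0.41 (SE, unadjusted p = 0.00736 in the edgeR fit), with cold AKO at 12.2, 7.60 and 3.93 CPM and cold WT at 4.39, 3.08 and 1.77, and 0.72 ± 0.45 at TN. Its cold groups overlapped in 1 library each, cold AKO 3 and cold WT 1. Me2 went the other way, -0.38 ± 0.14 in cold (unadjusted p = 0.0230 in the edgeR fit) and -0.06 ± 0.14 at TN.

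Cpt1b was 0.68 ± 0.29 higher in AKO in cold and 0.60 ± 0.34 at TN, with the cold value at 0.45 without cold AKO 1 and 0.44 without cold WT 3. In cold, Acaa2 gave 0.55 ± 0.26, Suclg1 0.49 ± 0.21 and Idh3a 0.49 ± 0.35, and these fell to 0.28, 0.25 and 0.23 without cold AKO 1. The part of the muscle transcripts, and of the thermogenic markers (5527 to 8459 CPM in cold AKO against 3274 to 4797 in cold WT), in these differences was not tested. Cpt1a differed by -0.02 ± 0.23 in cold. Under a looser rule, an unadjusted p under 0.15 with a log2 fold change beyond 0.2, 10 of 37 were higher in AKO in cold (4.74% of all genes) and 1 lower (4.24%), and 2 were higher at TN (3.97%).

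The response to cold did not differ detectably between the genotypes. The interaction of genotype and temperature was called in 0 of 37 genes by the same test and in 0.0% of all genes, with 0 of 37 at an unadjusted p under 0.05 (2.14% of all genes). Its values ranged from -0.39 (Pcx) to 0.64 ± 0.61 (Me3), with a median of 0.07. Of the 10 ratios, 0 differed between genotypes after adjustment. Cpt1b over Cpt1a was 0.62 higher in AKO and Me3 over Me2 1.22 higher. Each had p = 0.02 by a two-sided exact permutation test over both temperatures, with labels permuted within each. The adjusted p of that test over the 10 pairs was 0.1 for each. For Cpt1b over Cpt1a the AKO libraries were apart from WT in cold and overlapped at TN. In each AKO group its highest ratio was in the library with muscle transcripts, -7.03 in TN AKO 2 and -4.98 in cold AKO 1. The part of these transcripts in the ratio was not tested.

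**Figure D5:**
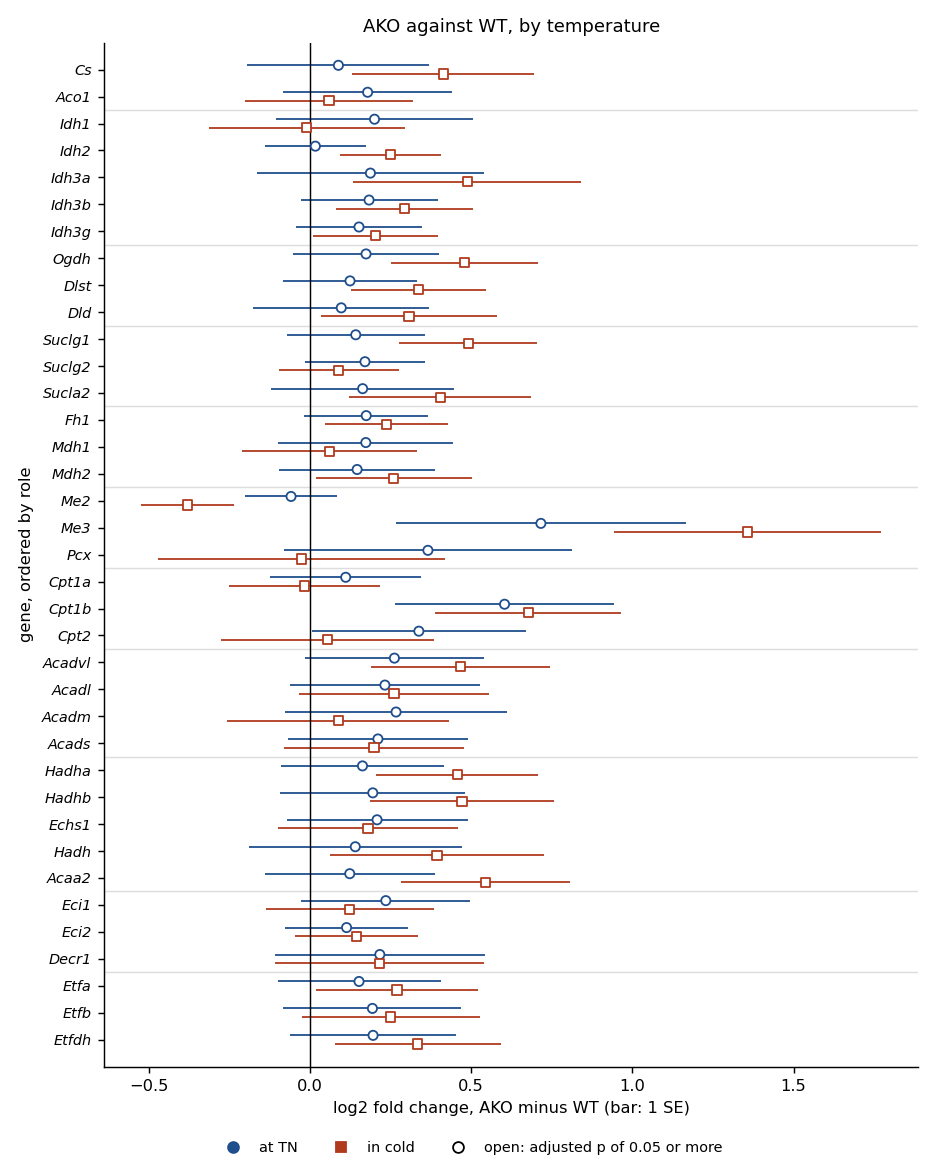
Log2 fold change of AKO against WT (horizontal axis, with bars of 1 SE) of each gene (vertical axis, ordered by role) at TN (circles) and in cold (squares), all open because no adjusted p was under 0.05. Most points lie right of 0, Me3 in cold farthest (1.36), and Me2 in cold lies left of it (-0.38).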

How the data were processed

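The authors trimmed reads with Trim Galore 0.4.4, aligned them to GRCm38/mm10 with STAR 2.6.1d and counted reads per gene with HTSeq 0.13.5, and the deposited values are these raw counts. The annotation and strand setting are not given in the sources used here. The 12 per-sample tables equalled the table of the series, and 5 tallies that name no gene (21.9 to 27.0% of each library) were left out. The 37 genes and the lists were chosen with earlier results of these data known, and 1 gene of the list of other TCA genes is not reported here. Counts were tested with edgeR 4.0.16 in R 4.3.3 (TMM, filterByExpr at 10 counts and 15 in total, 4 groups in 1 quasi-likelihood fit), with Benjamini-Hochberg adjustment over 15306 genes at 0.05. CPM are counts divided by TMM-scaled library sizes. Ratios had 0.5 added to each count. Levels per kb used the principal transcript of GENCODE M21, which was not stated to be the annotation behind the counts. The count table lists Adgre1 under the older symbol Emr1, so its annotation may differ and the overlaps may not apply to it. In it, exons of 8 members (Idh3b, Mdh1, Me3, Acadvl, Hadha, Echs1, Eci2 and Etfdh) overlap a gene on the other strand and those of 2 (Cpt1b and Etfb) a gene on the same strand, which makes their counts uncertain. Members of 10 pairs, the 5 largest and 3 smallest responses to cold in WT and the 5 largest genotype differences in cold are given in every library. Alternatives were DESeq2 1.42.0, voom of limma 3.58.1 with quality weights, other normalizations, no filter, the contrast's libraries alone, a replicate block, and each library left out. The fit was tested on simulated data for cold WT against TN WT. Simulated shifts of 2 log2 units were found in 61 of 66 genes, of 1 in 34 of 61 and of 0.5 in 5 of 73. Of 107 calls, 7 were false. The real contrast had many more calls (2389 higher and 870 lower), which changes the adjustment, so these shares do not describe it. The labels give each library as separate mouse tissue without saying how many mice it holds, so p-values measure the spread between these samples.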

Additional observations from a re-analysis of the deposited data

Results flagged for a closer look

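Reads that aligned to several places, a tally outside the gene counts, took a median share of 7.33% in the 6 cold libraries (6.30 to 9.33%), above the 4.40 to 5.71% of the TN libraries. Such reads are not in any gene's count.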

How the results depend on the processing

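With each library left out in turn, 29 to 34 of the 37 genes were called in cold in WT and 30 to 34 in AKO, in either direction, and 0 to 0 for genotype and interaction. The median log2 fold change then ran from 1.58 to 1.98 in WT, from 1.64 to 2.08 in AKO, from 0.08 to 0.44 for AKO against WT in cold, from -0.01 to 0.39 at TN, and from -0.10 to 0.28 for the interaction. The ratios passing in cold ran from 7 to 8, and from 0 to 0 for genotype. Upper quartile normalization moved the median of all genes to -0.17 in WT and -0.14 in AKO and that of the 37 to 1.63 and 1.75. DESeq2, voom, other normalizations, no filter and the contrast's libraries alone gave 31 to 34 calls in WT and 32 to 35 in AKO. The looser rule, which drops the adjustment, raises the p limit and adds a fold limit, gave 11 of 37 in cold and 2 at TN in place of 0. Same-numbered replicates correlated above 0.1 in 5 of 18 pairs (-0.43 to 0.39). Differently numbered libraries were not compared, so this cannot decide whether the numbers pair samples. A replicate block gave 32 calls in WT (Idh2, 0.56, lost), 31 in AKO (Suclg2, 0.63, lost) and 0 elsewhere. Fitting the WT libraries alone lost Idh1 (1.09) and Suclg2 (0.71) in WT, and upper quartile normalization lost Idh2 (0.42). An alternative added after seeing the data, both libraries with muscle transcripts left out, gave 33 and 31 calls (Suclg2 in AKO, 0.66, lost), with medians of 1.76 and 1.87 for cold, 0.08 for AKO against WT in cold and 0.01 at TN, and it turned Cpt1a in AKO to -0.031. Cpt1a in AKO was also reversed without TN AKO 3 (-0.0067), with 0.50 as its highest value over all alternatives, and Me2 in WT without TN WT 2 (0.0094), with -0.21 as the lowest value with 1 library left out and -0.22 the lowest over all alternatives (upper quartile normalization). Aco1 in WT passed with DESeq2 (0.76), voom (0.73), without TN WT 3 (1.01), TN AKO 1 (0.77) or TN AKO 2 (0.77). In AKO it passed with DESeq2 (0.67), voom (0.64) and without TN AKO 2 (0.88). Idh1 in AKO passed with DESeq2 (0.90), voom (0.84), the AKO libraries alone (0.90), and without TN WT 2 (0.88), TN WT 3 (0.88), TN AKO 2 (1.12) or cold WT 3 (0.88). The causes of these changes were not tested. Depth limits Cpt1b and Me3, with 9 to 21 and 20 to 50 counts a library at TN.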
